A study of Mus musculus with 16 samples.

Results

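The 4 mouse Fcγ receptors Fcgr1, Fcgr2b, Fcgr3 and Fcgr4, the signalling adaptors Fcer1g and Tyrobp, the Tyrobp-coupled receptor Trem2 and the kinase Syk were examined in cultured macrophages with and without Smad7 and with and without TGF-β1. They are the 8 genes with these symbols in the deposited count table, out of 35275 genes listed there and 13080 that passed the filter on low counts. All 8 passed that filter. RNA was sequenced from 16 libraries of bone marrow macrophages, in 4 groups of 4, with total counts from 16865591 to 23741079 per library. The control groups came from C57BL/6 mice carrying floxed Smad7 alleles only (Smad7 fl/fl, called fl/fl). The knockout groups (KO) came from littermates that also carried CAGGCre-ER, a tamoxifen-activated Cre recombinase under the CAGG promoter. That promoter is active in most cell types, so the deletion was global and not limited to myeloid cells. Mice of both genotypes received tamoxifen at 20 mg/kg on 5 days from an age of 1 month, with 2 weeks until the marrow was collected. The culture medium held 15% serum and CSF-1, the growth factor that drives macrophage differentiation, first at 12 ng/ml (24 hours) and then at 120 ng/ml (48 hours). Serum was then withheld for about 12 hours. In each genotype 1 group stayed untreated, and the other received 10 ng/ml TGF-β1 for a further 4 hours. The labels do not say whether the 4 libraries of a group came from separate animals or cultures, so the p-values measure the spread between these libraries, which may be technical.

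Fcγ receptors bind the constant part of IgG and let macrophages take up antibody-coated particles. The activating receptors Fcgr1, Fcgr3 and Fcgr4 carry no signalling motif of their own in the mouse and rely on the common γ chain, the product of Fcer1g, whose immunoreceptor tyrosine-based activation motif (ITAM) is phosphorylated by Src family kinases and then recruits Syk. Fcgr2b is the inhibitory receptor of the family and opposes this signal through the lipid phosphatase encoded by Inpp5d. Tyrobp (DAP12) is a second ITAM adaptor that serves Trem2, a lipid-sensing receptor of macrophages and microglia, and many other myeloid receptors. TGF-β1 signals through Smad transcription factors, and Smad7 is an inhibitory Smad that TGF-β itself induces. The comparisons ask which of these genes shift under TGF-β1, with and without Smad7, and whether the loss of Smad7 alters their level or their shift.

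Smad7 was measured first as a check of the labels. It was at 4.99 ± 0.895 CPM (counts per 1000000, with library totals scaled by the trimmed mean of M-values, TMM; SD, n = 4) in fl/fl untreated libraries, 45.5 ± 9.20 CPM after TGF-β1 in fl/fl, 2.70 ± 2.14 CPM in KO untreated libraries and 13.9 ± 4.36 CPM after TGF-β1 in KO. The Smad7 difference of KO from fl/fl was -0.89 ± 0.37 log2 untreated and -1.71 ± 0.33 with TGF-β1, and neither passed with all libraries (edgeR adjusted p = 0.423 and 0.122). Leaving out KO untreated replicate 1, it passed in both, at -1.63 ± 0.27 and -1.70 ± 0.21 (edgeR adjusted p = 0.0322 and 8.90e-04). That library had the highest Smad7 level of its group, so leaving it out enlarged the untreated difference by construction. Of 16 fits that each left out 1 library, this was the only one in which either difference passed. Counts cover the whole gene, so they do not show whether the floxed part was transcribed. The library labelled KO untreated replicate 1 stood apart from its group. Its Smad7 level was 5.87 CPM against 1.28 to 2.00 CPM in the other 3. For 20 of the 21 pathway genes named further on, it was the KO untreated library nearest to the mean of the KO libraries with TGF-β1. It was kept where its label places it, and results that involve KO macrophages are also given without it. The macrophage markers Csf1r and Lyz2 were at 3964 to 6733 and at 6531 to 16026 CPM, and all 8 markers of the macrophage list were detected in each group. Neutrophil, T and NK cell, mast cell, dendritic cell and erythroid lists summed to at most 15.96, 0.286, 0.888, 6.88 and 1.20 CPM. Stromal, osteoclast and megakaryocyte lists summed to at most 42.0, 18.1 and 146 CPM. The B cell list summed to 73.1 to 215 CPM, of which Ighm made up 70.4 to 212 CPM, and it is described beside Fcgr4. The defining neutrophil marker Ly6g and the B cell marker Pax5 were at 0 in every library. Some of these sums moved with TGF-β1. The macrophage list summed to 21580 to 23696 CPM in fl/fl untreated and 17307 to 21288 CPM in treated fl/fl libraries, which did not overlap. Mrc1, the mannose receptor, was the 1 of its 8 markers called (-0.54 ± 0.13 log2, edgeR adjusted p = 0.00834), at 312 to 726 CPM. Lyz2, the largest part of the sum, did not pass (-0.46 ± 0.19 log2, edgeR adjusted p = 0.113). Changes of 5 of the 8 lay below 0, and that of Csf1r above it (0.26 ± 0.14, edgeR adjusted p = 0.22). The stromal list summed to 12.8 to 13.7 CPM in fl/fl untreated and 22.5 to 33.2 CPM in treated fl/fl libraries. Of its markers Runx2 was called (1.44 ± 0.32 log2, edgeR adjusted p = 0.00574). Pdgfrb, at 0.161 to 6.88 CPM over all libraries, went the other way and did not pass (-1.14 ± 0.78 log2, edgeR adjusted p = 0.381). Col1a1, Col1a2, Col3a1, Cxcl12, Dcn and Bglap were at or near 0. In KO, with all libraries, the macrophage and stromal sums overlapped between treatments. Without KO untreated replicate 1, Runx2 rose in KO (1.44 log2, edgeR adjusted p = 2.74e-05). Cd14 of the macrophage list fell in that fit (-0.90 log2, edgeR adjusted p = 0.0371), while Mrc1 did not pass (edgeR adjusted p = 0.0806). The part of these lists in the results was not tested.

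Per length, the adaptor Fcer1g was the most abundant of the 8 transcripts and Fcgr4 the least abundant. Levels of different genes were compared only on deposited FPKM (fragments scaled to gene length and to the library total), because longer genes collect more reads. Over the 16 libraries Fcer1g had a median of 733 FPKM (596 to 1058) and Tyrobp, the other adaptor, a median of 570 FPKM (363 to 1020). Their ranges overlapped between libraries. Within KO TGF-β1 replicate 1 Tyrobp was the higher (1020 against 876 FPKM), and within each of the other libraries Fcer1g was. Fcgr3, the main low-affinity activating receptor, followed at a median of 241 FPKM (195 to 354). Trem2 (median 111 FPKM, 85.2 to 190) and Syk (median 99.8 FPKM, 76.1 to 138) overlapped widely. Below them came Fcgr1, the high-affinity IgG receptor, at 45.4 FPKM (38.2 to 57.8), then the inhibitory Fcgr2b at 22.9 FPKM (18.6 to 32.3) and Fcgr4, a receptor for IgG2 subclasses, at 8.66 FPKM (5.67 to 16.6). These last 3 did not overlap with each other.

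**Figure D1:**
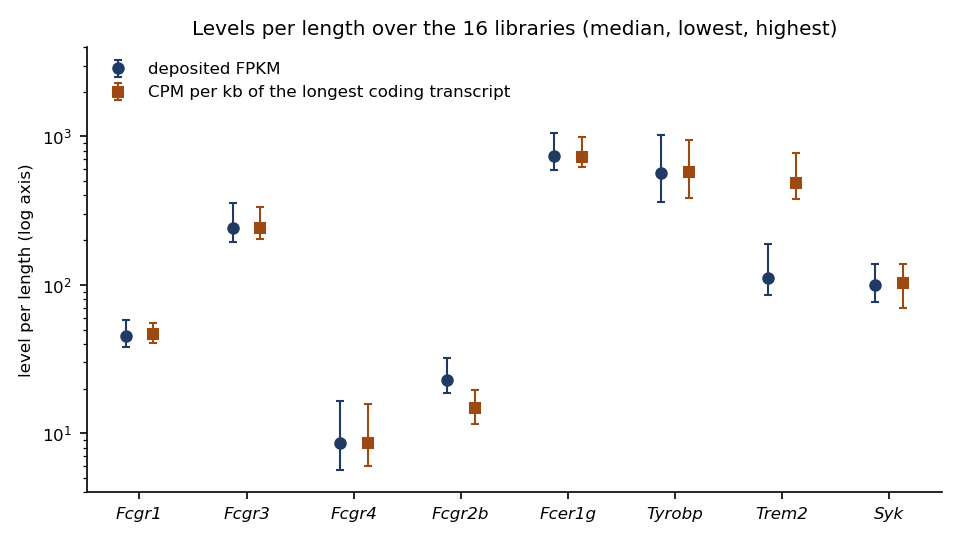
Levels per length of the 8 genes over the 16 libraries on a log axis, as deposited FPKM (circles) and as CPM per kilobase of the longest coding GENCODE transcript (squares); points are medians and bars run from the lowest to the highest library. Trem2 moves from a median of 111 to 484 when its longest coding transcript of 1088 bp replaces the deposited length of 4784 bp.

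The place of Trem2 in that order rests on its length. The deposited table gives it 4784 bp, whereas its longest coding transcript in GENCODE M21 has 1088 bp. On CPM per kilobase of the longest coding transcript, a setting chosen after seeing the data, Trem2 had a median of 484 (378 to 768), above Fcgr3 at 242 (203 to 337). Fcgr2b moved the other way, to a median of 14.8 (11.6 to 19.6) with a transcript of 3544 bp in place of 2250 bp, and then overlapped with Fcgr4 at 8.56 (6.03 to 15.8). The order of Fcer1g, Fcgr3, Syk, Fcgr1 and Fcgr4 was the same on both scales. Fcgr2b and Fcgr3 share long stretches of near-identical extracellular sequence, and how reads that fit both were counted is not stated, so the split between these 2 genes is uncertain.

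The 3 activating receptors are described first. 4 of the 8 genes lie in 1 stretch of chromosome 1 (mm10), in the order Fcgr2b (170960558 to 170976547), Fcgr4 (171018920 to 171029761), Fcgr3 (171051174 to 171064935) and Fcer1g (171229572 to 171234365), and Fcgr4 is on the plus strand while the others are on the minus strand. Fcgr1 (chromosome 3, 96282909 to 96293969, minus strand) lies apart from them. Each of these spans covers a whole gene, exons and introns included. Only Fcgr2b shared exon positions with another annotated gene, Gm38204 on the plus strand, which had 0 counts in every library.

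RefSeq promoter windows (GRCm38.p6, 250 bases before to 50 bases after the annotated start, 5′ to 3′ on the gene's strand) were matched for 7 of the 8 genes. The windows of the 3 activating receptors are shown because they are neighbours in function and 1 of them, Fcgr4, fell with TGF-β1. Capitals mark matches to 3 motifs searched on both strands: the Smad box (CAGAC or GTCTG), the core bound by PU.1, a transcription factor of myeloid cells (GAGGAAG or CTTCCTC), and the interferon-γ activated sequence (TTCNNNGAA). No matches overlapped in these windows.
Fcgr4, chr1:171018676-171018975, plus strand: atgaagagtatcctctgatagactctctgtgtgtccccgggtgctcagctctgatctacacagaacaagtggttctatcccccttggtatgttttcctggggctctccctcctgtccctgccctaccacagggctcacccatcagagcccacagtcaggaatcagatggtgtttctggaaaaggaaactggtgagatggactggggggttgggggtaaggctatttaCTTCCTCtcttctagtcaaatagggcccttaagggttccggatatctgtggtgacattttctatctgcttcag
Fcgr1, chr3:96293920-96294219, minus strand: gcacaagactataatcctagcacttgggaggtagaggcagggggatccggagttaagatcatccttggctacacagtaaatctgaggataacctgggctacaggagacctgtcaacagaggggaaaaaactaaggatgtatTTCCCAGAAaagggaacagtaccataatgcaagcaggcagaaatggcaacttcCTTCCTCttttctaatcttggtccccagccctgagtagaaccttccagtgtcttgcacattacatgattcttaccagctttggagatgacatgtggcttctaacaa
Fcgr3, chr1:171059354-171059653, minus strand: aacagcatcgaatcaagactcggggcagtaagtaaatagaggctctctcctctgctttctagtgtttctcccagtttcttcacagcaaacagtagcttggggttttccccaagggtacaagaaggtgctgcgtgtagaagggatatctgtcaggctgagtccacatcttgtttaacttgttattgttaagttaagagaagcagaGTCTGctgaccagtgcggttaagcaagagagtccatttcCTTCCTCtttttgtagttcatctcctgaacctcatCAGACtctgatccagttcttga
Each of the 3 windows held 1 PU.1 core, which is present in 13.6% of the 32851 RefSeq windows of this length. The Fcgr1 window also held 1 interferon-γ activated sequence (8.30% of windows), and the Fcgr3 window held 2 Smad boxes (49.6% of windows). A second, overlapping RefSeq window of Fcgr3, not shown (chr1:171059345-171059644), held 2 Smad boxes and 1 PU.1 core as well. In the Fcgr4 window the Smad box letters were not found. A match describes letters only, and no binding was measured in these libraries.

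With all 16 libraries, Fcgr4 was the only one of the 8 genes that passed the threshold (an adjusted p below 0.05) in a TGF-β1 comparison. It was lower with TGF-β1 in both genotypes. Fcgr4 was at 17.0, 15.1, 15.8 and 14.9 CPM in fl/fl untreated replicates 1 to 4 and at 8.68, 7.58, 9.67 and 10.2 CPM in fl/fl libraries with TGF-β1. Every treated fl/fl library lay below every untreated one. The fall was 0.577-fold, or -0.79 ± 0.18 log2 (95% interval -1.17 to -0.42, edgeR adjusted p = 0.00521). In KO macrophages Fcgr4 was at 10.1, 19.8, 17.6 and 17.2 CPM untreated and at 8.82, 11.3, 8.62 and 8.55 CPM with TGF-β1. KO untreated replicate 1, at 10.1 CPM, lay among the treated libraries, and the other 3 untreated libraries lay above all 4 treated ones. The fitted change in KO was -0.80 ± 0.18 log2 (edgeR adjusted p = 0.0194). Leaving out KO untreated replicate 1 gave -0.94 ± 0.14 (edgeR adjusted p = 9.76e-05). With all libraries kept, the KO call ended in a fit of the 8 KO libraries alone (-0.78, edgeR adjusted p = 0.167). It also ended without KO untreated replicates 2, 3 or 4 (edgeR adjusted p = 0.0683, 0.0781 and 0.0806) or KO TGF-β1 replicates 1, 3 or 4 (edgeR adjusted p = 0.0535, 0.0708 and 0.0657), with changes between -0.76 and -0.67. Fcgr4 counts ran from 143 to 398 per library, the lowest of the 8 genes.

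**Figure D2:**
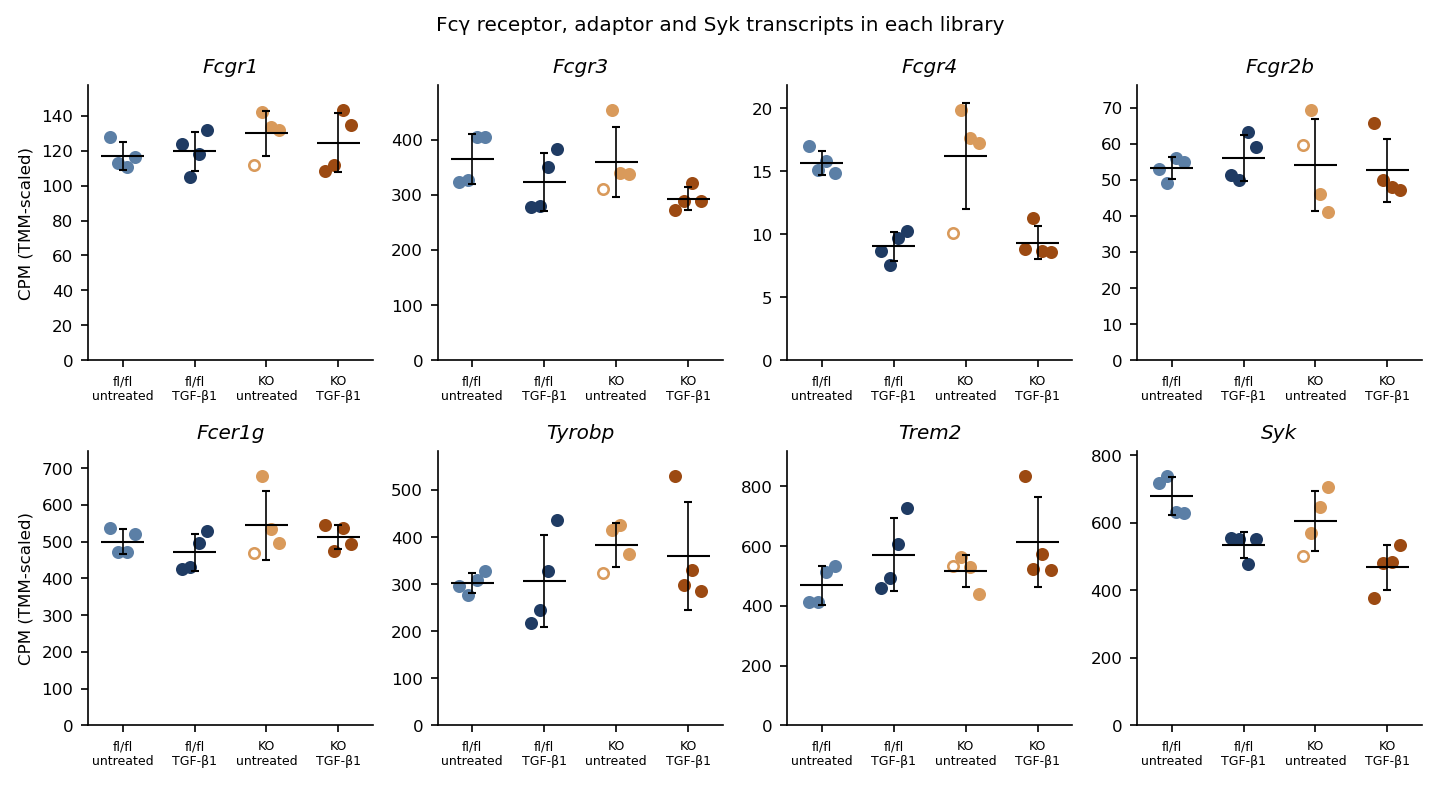
TMM-scaled CPM of the 8 genes in each of the 16 libraries, by group; points are libraries, the open circle is KO untreated replicate 1, and bars are the mean ± SD of 4 libraries. Fcgr4 in fl/fl macrophages is at 14.9 to 17.0 CPM without and at 7.58 to 10.2 CPM with TGF-β1, while the groups of Fcgr1 overlap.

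Fcgr1 and Fcgr3 did not pass the threshold in either genotype. Whether their response differs from that of Fcgr4 was not tested. Fcgr1 was at 128, 113, 111 and 116 CPM in fl/fl untreated and at 124, 105, 118 and 132 CPM in treated fl/fl libraries, and in KO at 112, 142, 133 and 132 CPM without and 109, 112, 143 and 135 CPM with TGF-β1. Its changes were 0.03 ± 0.11 log2 in fl/fl (95% interval -0.20 to 0.27, edgeR adjusted p = 0.885) and -0.06 ± 0.11 in KO (-0.30 to 0.17, edgeR adjusted p = 0.888). These intervals do not hold a change as large as that fitted for Fcgr4. Fcgr3 was at 324, 327, 405 and 405 CPM in fl/fl untreated and at 278, 281, 351 and 383 CPM in fl/fl TGF-β1 libraries. These groups overlapped, though each replicate number was lower with TGF-β1 than without. In KO it was at 311, 454, 341 and 337 CPM untreated and at 273, 289, 322 and 289 CPM with TGF-β1. Without KO untreated replicate 1 the KO groups of Fcgr3 did not overlap, but its change of -0.33 ± 0.14 log2 did not pass (edgeR adjusted p = 0.131). With all libraries it was -0.30 ± 0.14 in KO (edgeR adjusted p = 0.264) and -0.18 ± 0.14 in fl/fl (edgeR adjusted p = 0.446).

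The inhibitory receptor Fcgr2b was at 53.2, 49.1, 56.0 and 55.0 CPM in fl/fl untreated and at 51.4, 50.1, 63.4 and 59.2 CPM in treated fl/fl libraries. In KO it was at 59.7, 69.3, 46.1 and 41.2 CPM untreated and at 65.7, 49.95, 48.0 and 47.3 CPM with TGF-β1. The groups overlapped in both genotypes, and the changes were 0.07 ± 0.15 log2 in fl/fl (95% interval -0.24 to 0.38, edgeR adjusted p = 0.806) and -0.04 ± 0.15 in KO (-0.35 to 0.28, edgeR adjusted p = 0.961). Its spread was widest among KO untreated libraries, where replicates 1 and 2 lay above replicates 3 and 4.

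The balance of activating to inhibitory transcripts was described as the summed FPKM of Fcgr1, Fcgr3 and Fcgr4 over that of Fcgr2b. This ratio was 13.9 ± 0.778 (SD, n = 4) in fl/fl untreated and 11.8 ± 0.870 (SD, n = 4) in treated fl/fl libraries. In KO it was 14.2 ± 2.86 (SD, n = 4) untreated and 11.9 ± 2.38 (SD, n = 4) with TGF-β1, and the untreated value was 15.3 ± 2.00 (SD, n = 3) without replicate 1. The highest treated fl/fl library, at 13.1, lay above the lowest untreated one, at 12.8, so the fl/fl ranges met. Within each of the 4 replicate numbers in fl/fl the ratio was lower with TGF-β1 (12.8 and 11.4, 13.7 and 11.5, 14.3 and 11.1, 14.6 and 13.1). These numbers were taken to pair the fl/fl libraries, on weak correlations. Fcgr3 made up most of the activating sum, between 79.7 ± 0.998% and 82.3 ± 2.46% by group. The Fcgr4 share was 3.83 ± 0.511% in fl/fl untreated and 2.46 ± 0.133% in fl/fl TGF-β1 libraries, and 3.87 ± 0.716% and 2.73 ± 0.472% in KO. Fcer1g stood at 2.27 ± 0.277, 2.39 ± 0.0965, 2.44 ± 0.0725 and 2.79 ± 0.277 times the activating sum in fl/fl untreated, fl/fl TGF-β1, KO untreated and KO TGF-β1 libraries. The levels of these ratios and shares rest on the deposited gene lengths. The ratio to Fcgr2b also rests on the uncertain split of reads between Fcgr2b and Fcgr3. No test was run on these ratios and shares.

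The kinase Syk also had lower means after TGF-β1, as did Fcgr3 and Fcer1g, and its call depended on the fit. Syk (chromosome 13, 52583173 to 52648792, plus strand) binds doubly phosphorylated ITAMs and passes the signal on. It was at 717, 740, 633 and 628 CPM in fl/fl untreated and at 556, 552, 479 and 551 CPM in fl/fl TGF-β1 libraries. Every treated fl/fl library lay below every untreated one. The change was -0.35 ± 0.12 log2, or 0.787-fold, and missed the threshold in the fit of 16 libraries (95% interval -0.61 to -0.08, edgeR adjusted p = 0.0707). It also missed with RLE size factors (edgeR adjusted p = 0.0765), no filter on low counts (0.111), the planned replicate block (0.0883) and the length trend removed (0.0952). Of 16 fits that each left out 1 library it passed in 3, with edgeR adjusted p values from 0.0346 to 0.171. These 3 left out KO untreated replicate 1, KO untreated replicate 2 or KO TGF-β1 replicate 1, so the fl/fl counts were the same in them. Syk did not pass in any fit that left out an fl/fl library. It passed without KO untreated replicate 1 (-0.35 ± 0.11, edgeR adjusted p = 0.0354), with only the fl/fl libraries (edgeR adjusted p = 0.0184), with replicate numbers as blocks within fl/fl (edgeR adjusted p = 0.00773), in DESeq2 (adjusted p = 0.0451) and in limma on log2 FPKM (adjusted p = 0.0196). In KO macrophages Syk was at 502, 571, 646 and 706 CPM untreated and at 376, 481, 484 and 535 CPM with TGF-β1. Only KO untreated replicate 1, at 502 CPM, lay within the treated range. Its change in KO was -0.37 ± 0.12 log2 (edgeR adjusted p = 0.0973), and without that library the change was -0.42 ± 0.12 log2 (edgeR adjusted p = 0.0198).

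The Syk window is shown beside that of Fcgr4, since these were the genes with non-overlapping fl/fl groups. Capitals mark its single Smad box.
Syk, chr13:52583187-52583486, plus strand: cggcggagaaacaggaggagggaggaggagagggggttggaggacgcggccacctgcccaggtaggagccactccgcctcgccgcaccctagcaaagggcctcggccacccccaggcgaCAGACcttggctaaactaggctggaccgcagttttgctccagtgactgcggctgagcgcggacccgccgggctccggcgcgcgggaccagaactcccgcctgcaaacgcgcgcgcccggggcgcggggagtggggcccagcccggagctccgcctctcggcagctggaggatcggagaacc
Neither the PU.1 core nor the interferon-γ activated sequence was found in these letters. Among the other genes the Trem2 window held 2 Smad boxes and 1 PU.1 core, the Fcgr2b window 3 Smad boxes and the Fcer1g window 1 Smad box. A second RefSeq window of Syk, not shown (chr13:52596632-52596931), held 1 Smad box and neither other motif. The Smad box is present in 49.6% of all windows.

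Trem2 (chromosome 17, 48346401 to 48354147, plus strand) had higher means with TGF-β1 in both genotypes, but the libraries overlapped. It was at 411, 413, 514 and 535 CPM in fl/fl untreated and at 460, 492, 608 and 727 CPM in treated fl/fl libraries. In KO it was at 533, 563, 530 and 441 CPM untreated and at 836, 524, 573 and 520 CPM with TGF-β1. The changes were 0.29 ± 0.17 log2 in fl/fl (95% interval -0.07 to 0.64, edgeR adjusted p = 0.292) and 0.25 ± 0.17 in KO (-0.11 to 0.60, edgeR adjusted p = 0.528). The highest KO library with TGF-β1, replicate 1, set much of the KO value, which was 0.08 log2 without it. The fl/fl value was 0.15 log2 without fl/fl TGF-β1 replicate 4, the highest treated fl/fl library. That library also had the lowest mitochondrial share of reads (0.575%) and the fewest genes detected (14915) of all libraries. The part of these traits in its levels was not tested. In fl/fl, each replicate number was higher with TGF-β1 than without. With the numbers as blocks within fl/fl, Trem2 rose by 0.27 ± 0.07 log2 (edgeR adjusted p = 0.0313). This fit was chosen after seeing the data and rests on the weak pairing of the replicate numbers.

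The adaptors Fcer1g and Tyrobp did not pass in any comparison. Fcer1g was at 536, 471, 472 and 521 CPM in fl/fl untreated, 425, 432, 495 and 530 CPM in fl/fl TGF-β1, 469, 679, 534 and 496 CPM in KO untreated and 544, 475, 538 and 492 CPM in KO TGF-β1 libraries. Its change with TGF-β1 was -0.09 ± 0.12 log2 in each genotype (95% interval -0.34 to 0.16 in both). Tyrobp (chromosome 7, 30413788 to 30417577, plus strand) varied more between libraries than Fcer1g did. It was at 296, 277, 308 and 329 CPM in fl/fl untreated and at 217, 245, 328 and 435 CPM in treated fl/fl libraries. In KO it was at 324, 415, 425 and 364 CPM untreated and at 530, 297, 330 and 285 CPM with TGF-β1. The treated groups thus spanned the untreated ones in both genotypes, with changes of 0.02 ± 0.21 log2 in fl/fl (edgeR adjusted p = 0.973) and -0.08 ± 0.21 in KO (edgeR adjusted p = 0.925). The KO changes without KO untreated replicate 1 were -0.12 ± 0.12 log2 for Fcer1g and -0.12 ± 0.22 for Tyrobp. That fit gave -0.10 ± 0.11 for Fcgr1, 0.05 ± 0.16 for Fcgr2b and 0.29 ± 0.18 for Trem2, and none of these 5 genes passed.

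Some libraries high in Tyrobp or Fcer1g also had a large share of reads in short genes, and others did not. Genes under 1000 bp took 4.84% to 9.44% of a library's reads, and the deposited lengths of Tyrobp and Fcer1g are 564 and 674 bp. The 3 highest shares were 9.44% in KO untreated replicate 2, 7.44% in KO TGF-β1 replicate 1 and 6.77% in fl/fl TGF-β1 replicate 4. Those libraries held the highest Fcer1g of all (679 CPM) and the highest Tyrobp of the KO treated (530 CPM) and fl/fl treated (435 CPM) groups. On the other side, fl/fl untreated replicate 1 had the highest Fcer1g of its group (536 CPM) at a share of 5.13%, and KO untreated replicate 3 had more Tyrobp (425 CPM) than replicate 2 (415 CPM) at a share of 6.17%. KO TGF-β1 replicate 1 also had the lowest Syk, at 376 CPM, and Syk is a long transcript of 5363 bp. The part of this share in the results was not tested beyond removing the trend with length. After that removal, chosen after seeing the data, Fcgr4 kept both calls, at -0.78 log2 in fl/fl (edgeR adjusted p = 0.00424) and -0.73 log2 in KO (edgeR adjusted p = 0.0207), and none of the other 7 genes was called.

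**Figure D3:**
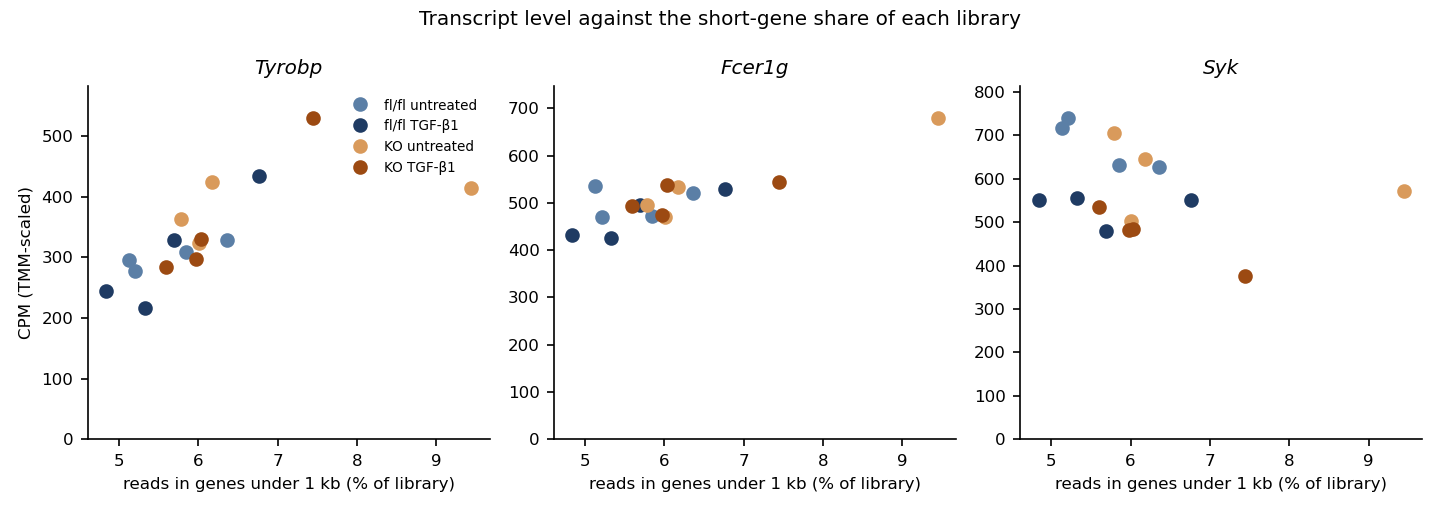
TMM-scaled CPM of Tyrobp, Fcer1g and Syk in each library against the percentage of its reads in genes under 1000 bp, coloured by group. The library at 9.44% is KO untreated replicate 2, which has the highest Fcer1g level, 679 CPM.

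Counted over the 8 genes, 1 passed in fl/fl macrophages with TGF-β1, Fcgr4, which was lower, while 15.5% of all tested genes were called there and 7.61% were lower. In KO macrophages 1 of 8 passed, again Fcgr4, against 5.17% of tested genes called and 2.97% lower. Without KO untreated replicate 1, Fcgr4 and Syk passed in both genotypes, 2 of 8, against 18.1% called in fl/fl (8.91% higher and 9.23% lower) and 15.2% in KO. In numbers this small, 1 or 2 of 8 lies near those shares. The groups did not overlap for Fcgr4 and Syk in fl/fl, where 23.9% of tested genes did not overlap and 12.5% were lower. In KO no member was free of overlap with all libraries (6.04% of tested genes), and Fcgr3, Fcgr4 and Syk were without replicate 1 (24.2%, with 12.6% lower). The median change of the 8 genes was -0.04 log2 in fl/fl and -0.09 in KO, beside -0.01 and -0.03 over all tested genes. The 2 TGF-β1 comparisons use separate libraries but share 1 estimate of the spread. Fewer cells of a type and less RNA per cell cannot be told apart in these bulk libraries.

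**Figure D4:**
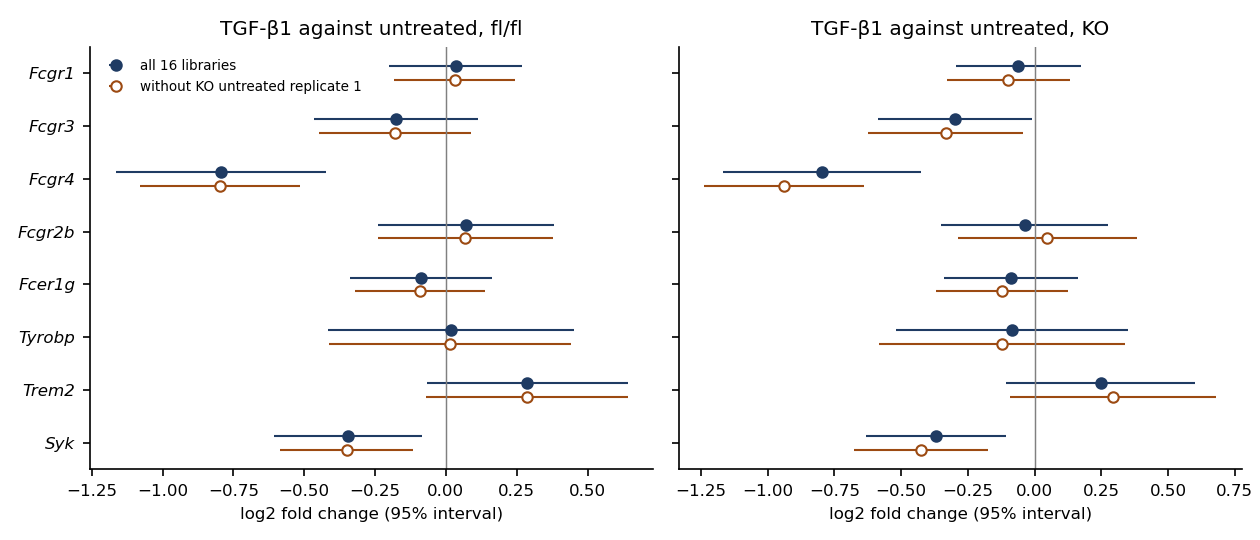
Log2 fold change of the 8 genes with TGF-β1 in fl/fl (left) and KO (right) macrophages with 95% intervals, for all 16 libraries (filled) and without KO untreated replicate 1 (open). The Fcgr4 intervals lie below 0 in both panels, at -1.17 to -0.42 in fl/fl and -1.17 to -0.43 in KO, and the Trem2 intervals include 0.

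No difference between the genotypes passed the threshold for any of the 8 genes. In untreated macrophages edgeR called 0 of 8 members, with 0 at an unadjusted p below 0.05 and 0.0459% of tested genes called, and DESeq2 and limma also called 0 of 8. With TGF-β1 the edgeR count was 0 of 8, with 0 at an unadjusted p below 0.05 and 0.0382% of tested genes called, and again 0 of 8 by DESeq2 and limma. The largest untreated difference was that of Tyrobp, at 0.34 ± 0.21 log2 higher in KO (95% interval -0.10 to 0.77, edgeR adjusted p = 0.548), and with TGF-β1 it was 0.23 ± 0.21 (-0.20 to 0.67, edgeR adjusted p = 0.891). Fcgr1 stood at 0.15 ± 0.11 log2 untreated (-0.08 to 0.39) and Syk at -0.16 ± 0.12 (-0.43 to 0.10). Without KO untreated replicate 1, the untreated groups did not overlap for Fcgr1, Fcgr4 and Tyrobp, all higher in KO, where 14.2% of tested genes did not overlap and 7.18% were higher. None of the 3 was called there, where 0.0994% of tested genes were called, with Tyrobp at 0.39 ± 0.22 log2 (edgeR adjusted p = 0.496), Fcgr1 at 0.20 ± 0.11 (edgeR adjusted p = 0.486) and Fcgr4 at 0.20 ± 0.14 (edgeR adjusted p = 0.597).

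The difference between the TGF-β1 responses of the genotypes, tested as an interaction, called 0 of 8 members by edgeR, with 0 at an unadjusted p below 0.05, and 0% of tested genes. DESeq2 and limma called 0 of 8 members as well. For Fcgr4 the 95% interval of the difference was -0.53 to 0.52 log2, and without KO untreated replicate 1 it was -0.14 ± 0.20 (edgeR adjusted p = 0.982). The interval for Syk was -0.39 to 0.35 log2 and that for Trem2 -0.54 to 0.46. Leaving out KO untreated replicate 1 gave intervals of -0.42 to 0.27 for Syk and -0.52 to 0.53 for Trem2.

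The genes with which these receptors signal were then taken by role, from lists written for this work with earlier results of these data known. Among 18 kinases and adaptors downstream of ITAMs, 5 rose and 5 fell with TGF-β1 in fl/fl macrophages, where 7.87% of all tested genes rose and 7.61% fell, with a median of -0.09 log2 against -0.01 over all tested genes. The exchange factor Vav1, which activates Rac in phagocytosis, went from 274 ± 15.6 to 514 ± 33.2 CPM (SD, n = 4), a rise of 0.91 ± 0.15 log2 (edgeR adjusted p = 9.25e-04). Its relative Vav3 went from 68.9 ± 6.80 to 16.2 ± 4.73 CPM (SD, n = 4) and changed by -2.08 ± 0.31 log2 (edgeR adjusted p = 7.24e-04). The adaptor Lcp2 (SLP-76) changed by -1.26 ± 0.22 log2 (edgeR adjusted p = 0.00149), and the Src family kinase Fgr rose by 1.17 ± 0.36 (edgeR adjusted p = 0.0335), though not when only the fl/fl groups were fitted (edgeR adjusted p = 0.0674) or with no filter on low counts (edgeR adjusted p = 0.0621). In KO macrophages, where 2.19% of tested genes rose and 2.97% fell, 2 of the 18 rose and 3 fell, among them Vav1 (0.68 ± 0.15), Vav3 (-1.68 ± 0.30) and Lcp2 (-1.06 ± 0.22). Without KO untreated replicate 1 the KO counts were 4 and 6, beside 8.33% and 6.88% of tested genes. In a fit of the 8 KO libraries alone edgeR called 0 genes of the whole table, with 1916 at an unadjusted p below 0.05, so each KO call given here with all libraries ended in that fit.

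Of 13 inhibitory phosphatases, ligases and adaptors, 6 rose and 2 fell in fl/fl macrophages, beside 7.87% and 7.61% of tested genes. Inpp5d, encoding the lipid phosphatase SHIP1 that Fcgr2b recruits, went from 529 ± 27.5 to 1224 ± 61.8 CPM (SD, n = 4), a rise of 1.21 ± 0.24 log2 (edgeR adjusted p = 0.00290). Pag1, an adaptor that brings the kinase Csk to the membrane, rose by 1.00 ± 0.19 (edgeR adjusted p = 0.00185). The phosphatase Ptpn22 (-1.91 ± 0.30, edgeR adjusted p = 9.25e-04) and the ubiquitin ligase Cblb (-0.56 ± 0.10, edgeR adjusted p = 0.00131) fell. In KO macrophages 3 rose and 2 fell, beside 2.19% and 2.97% of tested genes, with Pag1 at 0.80 ± 0.18 and Ptpn22 at -1.08 ± 0.29 (edgeR adjusted p = 0.0235 and 0.0432). Inpp5d did not pass there with all libraries (0.82 ± 0.24, edgeR adjusted p = 0.0575). Its KO untreated libraries held 1111, 346, 494 and 498 CPM, and without replicate 1, the one at 1111 CPM, it rose by 1.30 ± 0.13 log2 (edgeR adjusted p = 8.94e-07). Without that library 5 of the 13 rose and 4 fell in KO, beside 8.33% and 6.88% of tested genes.

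Of 25 other receptors that pair with Fcer1g or Tyrobp, or signal to Syk, 19 were tested, and in fl/fl macrophages 1 rose and 7 fell (7.87% and 7.61% of tested genes), with a median of -0.63 log2 against -0.01 over all tested genes. Clec7a (Dectin-1), a fungal glucan receptor that signals to Syk through its own hemITAM, went from 260 ± 27.1 to 62.3 ± 31.6 CPM (SD, n = 4), and fell by 2.06 on the log2 scale (edgeR adjusted p = 0.00650). Lilra6, a member of the leukocyte Ig-like receptor family, fell by 1.83 (edgeR adjusted p = 7.22e-04). Trem1, a Tyrobp-coupled receptor that amplifies inflammatory signals, rose by 2.81 ± 0.52 log2 from a low level, from 0.849 ± 0.432 to 5.83 ± 1.06 CPM (SD, n = 4; edgeR adjusted p = 0.00184). Chosen after their values were seen, 3 listed lectins of the Fcer1g-coupled Dectin-2 family were Clec4e at -1.45, Clec4d at -0.69 and Clec4n at -1.37 log2. Each passed in fl/fl and in KO, and how far these calls rest on single libraries is not given here. In KO macrophages edgeR called 5 as lower and 0 as higher (2.97% and 2.19% of tested genes), and without KO untreated replicate 1 these counts were 7 and 1 (6.88% and 8.33%). Clec7a did not pass in KO with all libraries. Of 16 fits that each left out 1 library it passed there in 2, with edgeR adjusted p values from 0.00258 to 0.247. Trem1 did not pass in KO with all libraries (1.00 ± 0.46, edgeR adjusted p = 0.262) and rose without that library (1.85 ± 0.38, edgeR adjusted p = 0.00196).

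Of 12 other Fc receptor genes, among them receptors for other antibody classes and for IgG inside the cell, 4 passed the filter on low counts, and 1 rose and 2 fell in fl/fl macrophages, beside 7.87% and 7.61% of tested genes. Trim21, a cytosolic receptor for antibody-coated viruses, went from 46.5 ± 4.83 to 20.0 ± 4.46 CPM (SD, n = 4), and changed by -1.22 ± 0.30 log2 (edgeR adjusted p = 0.0112). Fcrl1 changed by -0.84 ± 0.20 (edgeR adjusted p = 0.00914) and Fcrlb by 3.09 ± 0.70 (edgeR adjusted p = 0.00565), the latter from 0.195 ± 0.197 to 1.61 ± 0.157 CPM (SD, n = 4). In KO 0 of the 4 were called by edgeR with all libraries (5.17% of tested genes), where Trim21 and Fcrlb had an unadjusted p below 0.05, and 1 rose and 1 fell without KO untreated replicate 1 (8.33% and 6.88% of tested genes).

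Of 15 genes associated with Trem2 in lipid-laden and phagocytic macrophages, 3 rose and 1 fell in fl/fl macrophages, beside 7.87% and 7.61% of tested genes, so the count of lower genes was near the share over all genes. Axl, a receptor for apoptotic cells, went from 179 ± 23.9 to 392 ± 33.4 CPM (SD, n = 4), a rise of 1.13 ± 0.22 log2 (edgeR adjusted p = 0.00277). The tetraspanin Cd9 rose by 0.83 ± 0.21 (edgeR adjusted p = 0.0140), and lipoprotein lipase, Lpl, fell from 3279 ± 192 to 1633 ± 293 CPM (SD, n = 4; edgeR adjusted p = 0.00847). In KO macrophages 2 rose, Axl (0.87 ± 0.22) and Cd9 (0.78 ± 0.21), beside 2.19% of tested genes. Without KO untreated replicate 1 the counts were 4 higher and 1 lower, beside 8.33% and 6.88%. Adam10, a protease that sheds Trem2 from the cell surface, rose by 0.68 ± 0.21 log2 in fl/fl (edgeR adjusted p = 0.0323), but missed the threshold in limma on log2 FPKM (adjusted p = 0.0567) and with no filter on low counts (edgeR adjusted p = 0.0534). In KO it was at 0.71 ± 0.21 (edgeR adjusted p = 0.0568), and at 1.03 ± 0.16 without KO untreated replicate 1 (edgeR adjusted p = 1.66e-04).

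Of 7 subunits and regulators of the phagocyte oxidase, which makes superoxide after Fcγ receptor engagement, 1 rose in fl/fl and in KO, beside 7.87% and 2.19% of tested genes. This was Ncf1 (p47phox), at 327 ± 26.5 CPM untreated and 604 ± 45.2 CPM with TGF-β1 in fl/fl macrophages (SD, n = 4), or 0.89 ± 0.13 log2 (edgeR adjusted p = 6.97e-04), and 0.59 ± 0.13 in KO (edgeR adjusted p = 0.0182). Without KO untreated replicate 1, 1 of the 7 rose and 1 fell in KO, beside 8.33% and 6.88% of tested genes. Type I interferon genes were listed because interferons are known inducers of Fcγ receptors. Of 12 interferon-stimulated genes 4 fell in fl/fl and 3 in KO, beside 7.61% and 2.97% of tested genes. Without KO untreated replicate 1 these counts were 9 and 10, beside 9.23% and 6.88%. The antiviral genes Mx1 and Rsad2 stood at -2.31 ± 0.53 and -2.24 ± 0.56 log2 in fl/fl, and their part in the fall of Fcgr4 was not tested.

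Of the 21 named pathway genes, the 11 with a call in KO had larger KO changes when KO untreated replicate 1 was left out. For 20 of the 21, that library was the KO untreated one nearest to the mean of the KO TGF-β1 libraries. Leaving it out therefore enlarged such changes largely by construction. Fcgr4 and the 3 Dectin-2 family lectins, also called in KO, are not counted among the 11. Those of Vav1, Vav3 and Lcp2 were 0.90, -1.92 and -1.25 log2, and those of Pag1 and Ptpn22 were 1.12 and -1.30. Axl stood at 1.26, Cd9 at 1.04 and Ncf1 at 0.79 log2 in that fit, and Lilra6, Mx1 and Rsad2 at -1.55, -2.64 and -2.65. Each of the 11 passed there, with edgeR adjusted p values up to 9.75e-04. With all libraries, several of these pathway calls rested on single libraries. In KO macrophages Vav1, Lcp2, Pag1, Ptpn22, Lilra6, Axl, Cd9, Ncf1, Mx1 and Rsad2 each lost the call when at least 1 of KO untreated replicates 2 to 4 or KO TGF-β1 replicates 1 to 4 was left out, with edgeR adjusted p values up to 0.167. Vav3 kept its call whichever library was left out, with edgeR adjusted p values up to 0.0462. With no filter on low counts, Ptpn22, Axl, Cd9, Mx1 and Rsad2 also missed the threshold in KO (edgeR adjusted p between 0.0602 and 0.117), and Ptpn22, Cd9 and Rsad2 missed it in limma with either pseudocount (adjusted p between 0.0536 and 0.0823). In fl/fl macrophages the calls of Cd9 (edgeR adjusted p = 0.0508) and Rsad2 (edgeR adjusted p = 0.0546) ended without fl/fl TGF-β1 replicate 4. Those of Fgr and Adam10 ended without any 1 of fl/fl TGF-β1 replicates 1 to 3 or fl/fl untreated replicates 3 and 4, and that of Adam10 also without fl/fl untreated replicates 1 and 2, with edgeR adjusted p values up to 0.106.

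**Figure D5:**
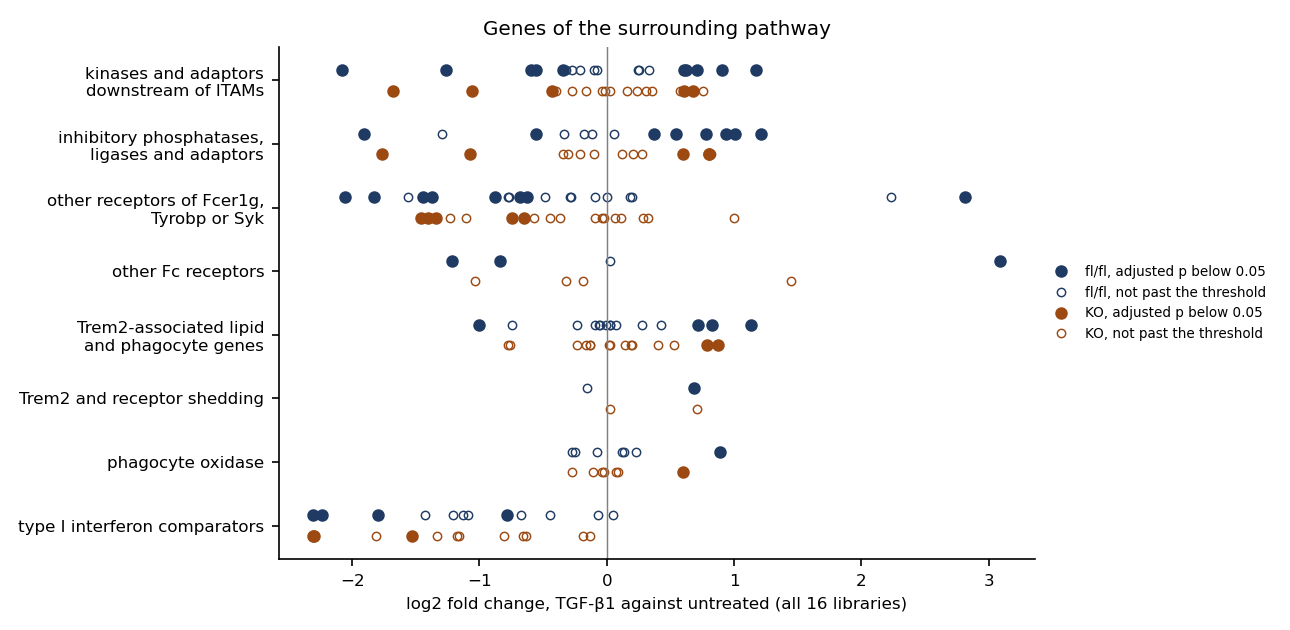
Log2 fold change with TGF-β1 of each tested gene in 8 lists, in fl/fl (blue) and KO (brown) macrophages with all 16 libraries; filled points passed an edgeR adjusted p of 0.05. Points of the kinase list lie on both sides of 0, from Vav3 at -2.08 to Fgr at 1.17 in fl/fl, and 15 of the 19 other receptors lie below 0 in fl/fl.

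The genes whose pattern over the 16 libraries was most like that of Fcgr4 were Vrk2, a protein kinase, and Pik3r6, a regulatory subunit of phosphoinositide 3-kinase γ. The measure was the root mean square difference of log2 CPM after each gene was centred on its own mean, over 8403 genes compared. It was 0.143 for each of these 2 genes, beside 0.448 for the distance of Fcgr4 from its own mean. Vrk2 went from 20.5 ± 2.96 to 11.1 ± 1.01 CPM in fl/fl and from 19.7 ± 5.86 to 10.7 ± 1.05 CPM in KO (SD, n = 4 each). Pik3r6 went from 62.8 ± 4.00 to 34.4 ± 5.20 CPM in fl/fl and from 67.2 ± 18.6 to 33.3 ± 3.78 CPM in KO. The KO changes of Vrk2 and Pik3r6 without KO untreated replicate 1 were -1.05 and -1.16 log2. Both were chosen for following Fcgr4 in these same libraries, so their lower levels with TGF-β1 repeat the choice and are given with no test. The summed B cell list, nearly all of it Ighm, also moved with Fcgr4, at 163 to 215 CPM in fl/fl untreated, 90.3 to 118 in fl/fl TGF-β1, 115 to 194 in KO untreated and 73.1 to 110 CPM in treated KO libraries. Of its 7 markers Pax5 was at 0 in all libraries and Ighm ran from 70.4 to 212 CPM. Ighm changed by -0.85 ± 0.16 log2 in fl/fl (edgeR adjusted p = 0.00221) and -0.91 ± 0.16 in KO (edgeR adjusted p = 0.00927). Without KO untreated replicate 1 its KO change was -1.03 (edgeR adjusted p = 1.78e-05). Cd79b, the other marker of that list tested, did not pass in either genotype. The part of that list in the result was not tested.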

How the data were processed

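The members and gene lists were chosen with earlier results of these data known. The submitters' processing notes name TopHat2 (2.0.9), HTSeq (0.6.1), Cufflinks (2.1.1), mm10 and GRCm38.p6 without roles, and counting options are not given in the sources used here. The authors deposited raw counts for 35275 genes in 16 libraries, with symbols, coordinates and gene lengths, per the file headers. The deposited FPKM equalled count over length and library total in 100% of values, within 0.1%. The labels list 16 libraries, while the protocol in the labels speaks of fewer. No 2 libraries were identical. Totals of 16865591 to 23741079 counts set the precision, and without molecular identifiers only counting error is covered.

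Counts were tested with edgeR 4.0.16 (TMM, filterByExpr, robust quasi-likelihood F-tests) under R 4.3.3, with 1 mean per group over all 16 libraries and Benjamini-Hochberg adjustment over 13080 genes at 0.05. CPM are counts relative to the TMM-scaled total, intervals are 95%, and log2 fold changes carry their SE. The code was tested on simulated data. Alternatives were DESeq2 1.42.0, limma 3.58.1 on log2(FPKM + 0.1) and log2(FPKM + 1), RLE size factors, no filter, only the groups compared, replicate blocks and each library left out. Added after seeing the data were blocks within fl/fl, removal of the trend with gene length (loess, span 0.5) and coding transcript lengths from GENCODE M21.

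Replicate numbers come from the labels. Same-numbered fl/fl libraries deviated together (correlations of 0.123 to 0.181, each above 0.1), so the numbers were taken to pair the fl/fl libraries. Those of KO ran from 0.0754 to 0.239 and were not taken to pair. In each genotype only 2 of the 4 pairs correlated best with their own number, so the pairing taken in fl/fl is weak. Named were the 8 genes, Smad7, up to 2 rising and 2 falling genes of each of 8 pathway lists by size of change in fl/fl among those past the threshold, and the 2 characterised genes nearest in profile to each member called, with an average log2 CPM of at least 3. Promoters are RefSeq windows (GRCm38.p6). Symbols with 2 rows used the row with more counts.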

Additional observations from a re-analysis of the deposited data

Results flagged for a closer look

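In 40 groups of 4 libraries, 6 had 1 library whose gap to its nearest neighbour, as a share of the group's range, exceeded Dixon's 95% critical value, and chance gives about 1 in 20 such groups. Syk in fl/fl TGF-β1 libraries had a low library at 479 CPM, replicate 3, below 3 libraries between 551 and 556 CPM. The ratio of activating receptors to Fcgr2b in the same group had a high library at 13.1, beside a group median of 11.4. In KO TGF-β1 libraries, replicate 1 stood high for Fcgr2b (65.7 CPM) and Trem2 (836 CPM), and replicate 2 stood high for Fcgr4 (11.3 CPM). KO TGF-β1 replicate 1 also had 7.44% of its reads in genes under 1000 bp, and the part of that share in these values was not tested. Smad7 in KO untreated libraries had a high library at 5.87 CPM, replicate 1.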

How the results depend on the processing

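Fcgr4 in fl/fl macrophages kept its direction and its call in every alternative run, with changes from -0.86 to -0.72 log2 when each library was left out. The planned replicate block changed no call of the 8 genes. Of the other named genes it ended the call of Ptpn22 (-1.04, edgeR adjusted p = 0.0714) and added that of Adam10 (0.75, edgeR adjusted p = 0.0462) in KO, where the numbers were not taken to pair the libraries.

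The count of members called in fl/fl, 1, was 2 by limma with either pseudocount, by DESeq2 and with only the groups compared, 3 with the replicate block within fl/fl (Fcgr4, Syk and Trem2), and 1 to 2 with each library left out. The count in KO, 1, was 2 by limma with either pseudocount, 0 with only the groups compared, and 0 to 2 with each library left out. Over all tested genes, the KO count of 676 was 446 with no filter, 0 with only the groups compared, 1093 by DESeq2 and 93 to 1989 with each library left out. The fl/fl count of 2025 ran from 1379 to 2372 with each library left out, and was 2396 by DESeq2 and 2517 with the replicate block within fl/fl. Genes called between genotypes untreated, 6, were 10 with no filter, 61 by DESeq2 and 4 to 13 with each library left out. With TGF-β1 the count of 5 was 24 by DESeq2 and 4 to 8 with each library left out, and the interaction count of 0 was 1 by DESeq2.

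Changes of sign occurred in log2 differences that passed the threshold neither with all libraries nor in the alternative, and the cause was not tested. With limma (pseudocounts 0.1 and 1) they were Fcgr1 in fl/fl (-0.021 and -0.020), Tyrobp in fl/fl (-0.086 and -0.086), Fcgr3 between genotypes untreated (0.015 and 0.015), and the interactions of Fcgr4 (0.064 and 0.052) and Syk (0.0011 and 0.0014). Tyrobp in fl/fl was -0.035 with the block within fl/fl. With the length trend removed, the genotype difference was -0.11 untreated and -0.057 with TGF-β1 for Fcgr4, -0.094 and -0.032 for Fcer1g and -0.049 untreated for Fcgr2b, and the interaction of Fcgr4 was 0.053. That interaction was 0.0083 with RLE, 0.014 with no filter, 0.016 with the planned block and 0.0081 by DESeq2.

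With each library left out, sign changes gave these ranges. For TGF-β1 in fl/fl they were -0.015 to 0.092 for Fcgr1 and -0.20 to 0.15 for Tyrobp. For TGF-β1 in KO they were -0.13 to 0.014 for Fcgr1, -0.15 to 0.12 for Fcgr2b, -0.12 to 0.048 for Fcer1g and -0.31 to 0.022 for Tyrobp. Between genotypes untreated they were -0.15 to 0.024 for Fcgr3, -0.071 to 0.20 for Fcgr4, -0.12 to 0.12 for Fcgr2b and -0.0053 to 0.17 for Fcer1g. With TGF-β1 they were -0.016 to 0.12 for Fcgr1, -0.051 to 0.11 for Fcgr4, -0.0066 to 0.45 for Tyrobp and -0.080 to 0.24 for Trem2. For the interaction they were -0.19 to 0.023 for Fcgr3, -0.14 to 0.13 for Fcgr4, -0.21 to 0.047 for Fcgr2b, -0.045 to 0.14 for Fcer1g, -0.33 to 0.12 for Tyrobp, -0.21 to 0.095 for Trem2 and -0.093 to 0.087 for Syk.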
